A study of Mus musculus with 9 samples.

Results

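Microglia sorted from mouse brains 24 h after a transient ischemic attack (TIA 24h) were compared with microglia from Sham mice, with 3 animals per group, over the 757 genes of a neuroinflammation panel. The comparison holds 6 of the 9 samples of the series, chosen by their titles. The remaining 3 samples, taken 3 d after the TIA, entered the fit for its estimate of the spread. The TIA was a brief occlusion of the middle cerebral artery by an intraluminal filament, and Sham mice are described as having the surgery without its insertion. All mice were perfused with heparinised saline, and their brains went into buffered saline with actinomycin D, which blocks transcription, before papain dissociation and a Percoll gradient. Live cells positive for CD45 and CD11b were sorted, a gate that can also hold other myeloid cells of the brain and blood. The labels give no strain, sex or age, but the study describes the mice of this panel as males, its purchased wild-type mice as C57BL6/J, and its animals, apart from an aged cohort for other assays, as young adults in 1 narrow range of age. Which strain gave these samples is not stated for the panel itself. RNA was hybridised to barcoded probes and counted on an nCounter SPRINT instrument without amplification.

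Microglia are the resident macrophages of the brain, and they depend on signalling through the CSF1 receptor and on TGF-beta. In the healthy brain they express a set of homeostatic genes, among them those for the purinergic receptor P2RY12, the surface protein TMEM119 and the fractalkine receptor CX3CR1. In injury and degeneration this set is known to go down while genes of a disease-associated program, such as Spp1, Apoe and Cst7, go up. Ischemia is also known to release ATP and debris, which microglia sense through purinergic, TREM2 and scavenger receptors.

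The deposited values were log2 normalized counts. Within each lane, the run of 1 sample, all values were whole multiples of a single step within a tolerance of 0.01, so the whole count of every gene could be recovered. The totals over the 757 genes were 25582, 14897 and 6560 recovered counts in Sham replicates 1, 2 and 3. At TIA 24h they were 10929, 7924 and 7248. The means were 15680 ± 9535 and 8700 ± 1959 (SD, n = 3), and an exact two-sided permutation test gave p = 0.4, where 0.1 is the smallest p that 3 lanes against 3 can reach. Sham replicate 3 was the shallowest lane of the comparison and Sham replicate 1 the deepest, 3.90 times above it. The median count over genes was 14, 13 and 8 in Sham and 11, 9 and 8 at TIA 24h. A count of 8 has an exact 95% Poisson interval of 3.45 to 15.8 and a count of 30 one of 20.2 to 42.8, which cover counting error only. The lowest count was 1, held by 5 to 18 genes of each lane. Whether counts of 0 were raised to 1 before deposit is not given in the sources used here, and the background of each lane was not analysed here, which bears on values that rest on single counts, as in Il1a, Rela, Apoe, Nfkbia, Cst7 and Tnfrsf4. In the deepest lane the microglial gene Cx3cr1 had the most counts, 1118, whereas the top gene of Sham replicate 3, C1qc, had 32.

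One step, the normalized value of 1 count, was 0.958, 1.09 and 1.96 in Sham replicates 1, 2 and 3 and 1.58, 1.85 and 1.89 at TIA 24h. A gene with the same recovered count in all 6 lanes would therefore show a log2 difference of 0.47 in favour of TIA 24h on the deposited scale. This is the value to hold beside the low-count genes below. In bulk RNA of sorted cells, fewer cells of a type and less RNA per cell cannot be told apart.

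No gene of the 757 passed an adjusted p of 0.05 between TIA 24h and Sham (limma, Benjamini-Hochberg, 0% called), and the smallest adjusted p was 0.617. In the same fit 145 genes (19.2%) passed between TIA 3d and TIA 24h, 88 higher (11.6%) and 57 lower (7.53%) at TIA 3d, whose lanes were all deeper. At an unadjusted p of 0.05, limma had 37 genes higher (4.89% of those tested) and 20 lower (2.64%) at TIA 24h. This split was 19 higher and 30 lower with median centring, 26 and 27 with quantile normalization, 41 and 14 with the lane total, 50 and 8 with the log2 lane total as a covariate, and 71 and 5 with voom. With single replicates of these groups left out, 23 to 84 genes were higher and 3 to 58 lower, the ends of the lower set coming without TIA 24h replicate 3 and without Sham replicate 3. The voom fit on the recovered counts also called 0 genes at an adjusted p of 0.05. The mean was higher at TIA 24h for 461 genes and lower for 296, and the median log2 difference over all genes was 0.15. Of the 113 genes named by rule or added, 82 had a difference that moved by over 1.5 times, or changed sign, when 1 lane of these groups was left out, 67 of them without Sham replicate 1 and 59 without Sham replicate 3. Single differences ran from -2.33 for Il1a to 2.79 for Spp1, beside a median standard error of 0.48. The scaling moved the median of all genes to -0.03 with samples centred on their median, to -0.02 with quantile normalization and to 0.36 with recovered counts scaled to the lane total.

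All 3 TIA 24h values lay above all 3 Sham values for 61 genes (8.06%) and below them for 13 (1.72%). Median centring changed this split to 36 higher and 30 lower, quantile normalization to 32 and 38, and scaling to the lane total to 69 and 12. On the recovered counts with no scaling it turned to 11 higher and 31 lower. The balance of higher and lower genes thus depended on the scaling. Of the 61 genes above Sham on the deposited scale, 36 were also above it with median centring, 31 with quantile normalization, 38 with the lane total and 10 in unscaled counts. Of the 13 genes below Sham, 11, 13, 6 and 7 were also below it in the same order of settings.

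**Figure D1:**
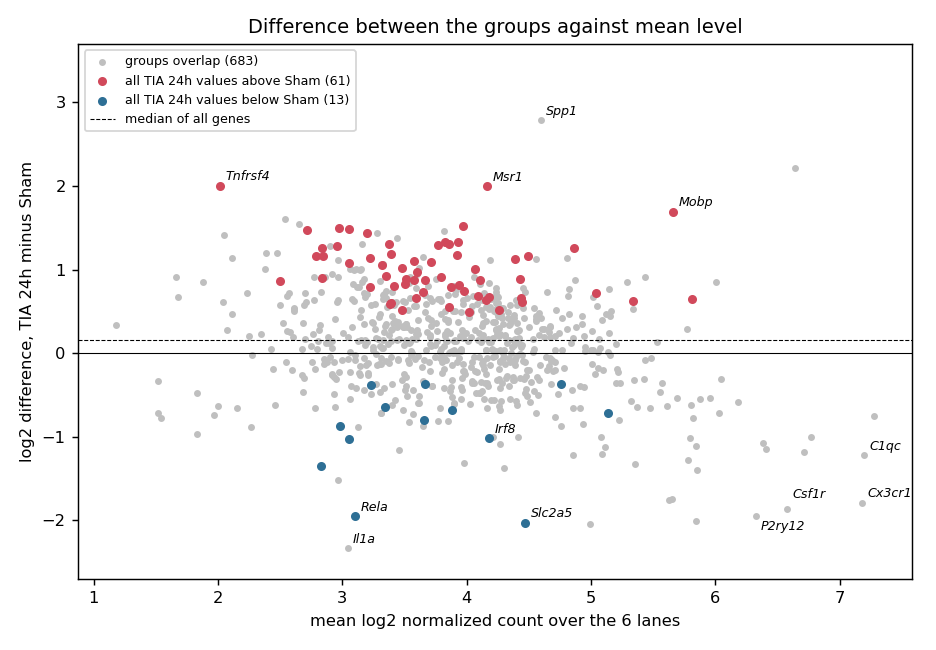
Log2 difference between TIA 24h and Sham (vertical axis) against the mean log2 normalized count over the 6 lanes (horizontal axis), 1 point per gene. Coloured points are the 61 genes whose 3 TIA 24h values all lay above Sham and the 13 whose values all lay below, and the dashed line is the median of all genes at 0.15. Spp1, at 2.79, and Il1a, at -2.33, are the ends of the panel and are grey, since their groups overlap.

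Among genes with a mean of at least 10 counts, 26 lay wholly above Sham and 6 wholly below on the deposited log2 scale, 5 and 3 of them also in recovered counts. The mean is over unscaled lanes, in which the deep Sham replicates 1 and 2 weigh most. Msr1, a scavenger receptor that takes up modified lipoproteins and debris, had the highest log2 difference of the first set. Its log2 values were 3.64, 3.30 and 2.56 in Sham and 4.98, 4.69 and 5.83 at TIA 24h, from 13, 9 and 3 counts against 20, 14 and 30. The lowest TIA 24h lane exceeded the highest Sham lane in log2 values and in counts, although all TIA 24h lanes were shallower than Sham replicates 1 and 2. The difference was 2.00 ± 0.58 (SE, limma adjusted p = 0.617), and it stayed between 1.67 and 2.24 when single replicates were left out.

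Mobp, which encodes a protein of compact myelin, came next with log2 values of 4.40, 5.48 and 4.56 in Sham and 6.81, 6.59 and 6.13 at TIA 24h. The recovered counts were 22, 41 and 12 against 71, 52 and 37, so in counts the highest Sham lane overlapped the lowest TIA 24h lane. The difference was 1.69 ± 0.46 (SE), 3.23-fold, with a limma adjusted p of 0.617. Mobp was the single gene to pass an adjusted p of 0.05 in limma after quantile normalization, with a difference of 2.92 and an adjusted p of 0.0305, and over the other fits its adjusted p ran from 0.131 to 0.875. Bcas1, expressed by newly forming oligodendrocytes, had 11, 15 and 10 counts in Sham against 26, 19 and 14 at TIA 24h, a difference of 1.16.

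Genes of several other roles were in the same set. Il1b, the precursor of the cytokine interleukin-1 beta, had log2 values of 3.11, 3.13 and 3.56 in Sham and 4.90, 3.89 and 5.01 at TIA 24h, a difference of 1.33 ± 0.58 (SE). Its counts of 9, 8 and 6 against 19, 8 and 17 overlapped, since Sham replicate 1 had 1 count more than TIA 24h replicate 2. Il1rn, the antagonist of the interleukin-1 receptor, was at 9, 18 and 12 counts against 18, 16 and 16 and differed by 0.89, or by 0.45 without Sham replicate 1 and 0.49 with the lane total as a covariate. Casp9, the initiator caspase of the mitochondrial death pathway, had 10, 7 and 5 counts in Sham against 11, 17 and 11 at TIA 24h and differed by 1.33 ± 0.41. Its groups stayed apart in counts, by a single count.

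Pnoc, the precursor of the neuropeptide nociceptin, was at 8, 6 and 8 counts in Sham against 17, 18 and 11 at TIA 24h, a log2 difference of 1.52 ± 0.44 (SE). Lilrb4a, an inhibitory receptor of myeloid cells, was at 18, 18 and 10 counts against 38, 14 and 31 and differed by 1.26. Its second TIA 24h lane, at 14 counts, lay within the Sham counts. Kir3dl2, a receptor of the killer cell immunoglobulin-like family, was at 12, 8 and 4 counts against 9, 15 and 16 and differed by 1.31. Its groups overlapped in counts. Lmna, which encodes lamins A and C of the nuclear envelope, differed by 1.17 and Kif2c, a mitotic kinesin, by 1.00. In Apc, a regulator of Wnt signalling, the difference of 1.13 came from 2 counts in Sham replicate 3, since the other Sham lanes, at 4.80 and 4.71, were close to the TIA 24h lanes at 4.98, 4.89 and 5.01.

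Slc2a5, the fructose transporter that marks microglia in the brain, was the most distinct of the lower genes. Its log2 values were 6.40, 5.08 and 4.97 in Sham and 2.98, 3.89 and 3.51 at TIA 24h. The counts were 88, 31 and 16 against 5, 8 and 6, so the shallowest Sham lane had more counts than the deepest TIA 24h lane. The difference was -2.03 ± 0.56 (SE), 4.08-fold lower, with a limma adjusted p of 0.617. It was -1.57 without Sham replicate 1 and -2.04 with the lane total as a covariate.

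Irf8, a transcription factor needed for microglial development, was also lower in every TIA 24h lane, with 43, 15 and 13 counts in Sham against 9, 6 and 7 at TIA 24h. Its log2 values were 5.36, 4.03 and 4.67 against 3.83, 3.47 and 3.73, a difference of -1.02 ± 0.42 (SE) that ran from -1.34 to -0.68 with single replicates left out. The other genes of the lower set were Pld1, a phospholipase D, at -0.79, Rhoa, a small GTPase of the cytoskeleton, at -0.72, Slc17a7, a vesicular glutamate transporter of neurons, at -0.68, and Bid, a pro-apoptotic BCL2 family member, at -0.37. For Rhoa the counts were 65, 46 and 15 against 18, 14 and 15, so that Sham replicate 3 matched the TIA 24h lanes in counts.

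**Figure D2:**
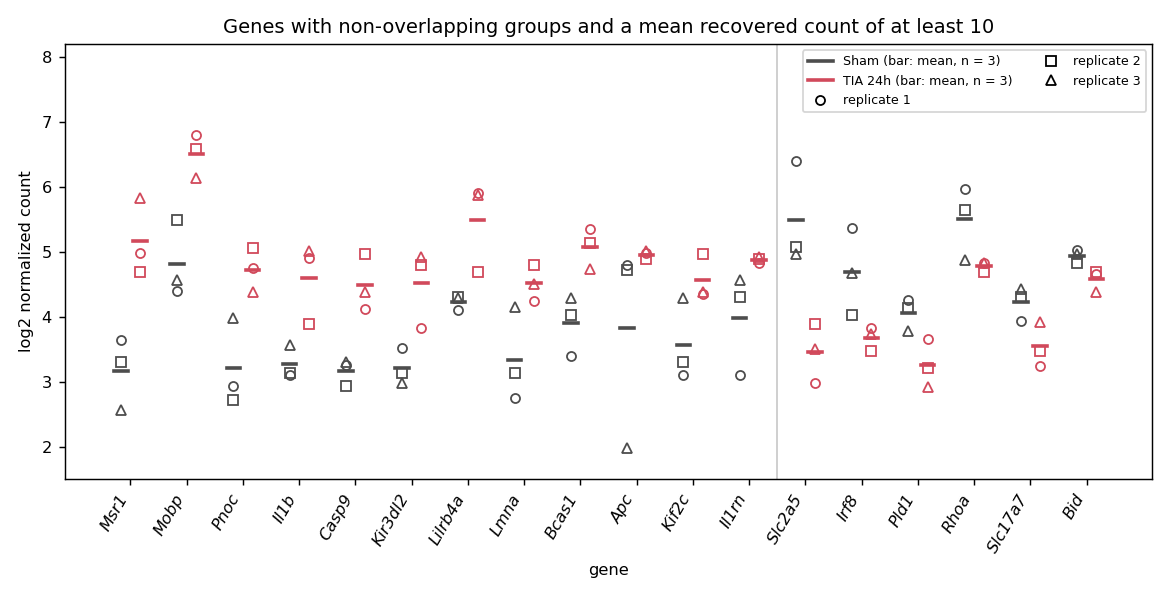
Log2 normalized count (vertical axis) in each of the 3 Sham and 3 TIA 24h lanes for the 12 genes with the highest and the 6 with the lowest log2 difference among genes whose groups did not overlap and whose mean was at least 10 counts. Symbols are replicates and bars are group means; Msr1, Mobp and Slc2a5 have the 3 largest differences between group means.

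Because the scaling moved so many calls, the genes that kept the groups apart in recovered counts, on the deposited scale and under the 3 other scalings were listed after their values were seen. There were 7 higher and 3 lower. Beside Msr1, Pnoc and Casp9, the higher genes included Tnfrsf4, the T cell costimulatory receptor OX40, Bik, a pro-apoptotic BH3-only gene, and Cdc7, a kinase that fires replication origins. Tnfrsf4 had 2, 1 and 2 counts in Sham against 4, 6 and 4 at TIA 24h, and Bik 3, 5 and 4 against 9, 9 and 6. Counts this low have wide intervals, 1.62 to 11.7 for a count of 5. With sample weights in limma, which gave Sham replicate 3 a weight of 0.341, Tnfrsf4 was the single gene to pass, at an adjusted p of 0.0395 and a difference of 2.64 against 2.00 without weights, and its adjusted p in the other fits ran from 0.0641 to 0.875.

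Beside Slc2a5 and Irf8, the third lower gene was Rela, the p65 subunit of NF-kB. It had 30, 13 and 6 counts in Sham against 3, 1 and 5 at TIA 24h, or log2 values of 4.85, 3.83 and 3.56 against 2.24, 0.89 and 3.24. The difference was -1.95 ± 0.58 (SE, limma adjusted p = 0.617), and without TIA 24h replicate 2, the lane with 1 count, it was -1.34.

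The homeostatic surface and secreted genes stood furthest from the rest of the panel. Of the 10 measured, 9 were lower in mean at TIA 24h, 6 of them at an unadjusted p below 0.05 beside 2.64% of all genes (20 genes, a background that moved between 5 and 30 with the scaling, covariate and voom), and the median log2 difference was -1.78 beside 0.15 over all genes. The direction held in all 3 other scalings, at -1.96 with median centring, -1.09 with quantile normalization and -1.57 with the lane total. None of the 10 passed an adjusted p of 0.05 in limma, and Slc2a5 was the only one whose groups did not overlap.

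P2ry12 encodes the purinergic receptor that steers microglial processes to injury. Its log2 values were 9.47, 7.75 and 4.67 in Sham and 5.90, 5.64 and 4.51 at TIA 24h. The counts were 742, 197 and 13 against 38, 27 and 12. Sham replicate 3 thus lay below 2 of the 3 TIA 24h lanes. The difference was -1.95 ± 0.90 (SE, limma adjusted p = 0.65), with an SD of 2.43 within Sham and 0.743 within TIA 24h.

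Cx3cr1 had the highest counts of the set, 1118, 296 and 29 in Sham and 96, 45 and 20 at TIA 24h, and differed by -1.79 ± 0.86 (SE). Tmem119 was at 369, 99 and 10 counts against 26, 15 and 9 and differed by -1.76. Gpr34, a lysophosphatidylserine receptor, differed by -2.01, and Sall1, the transcription factor that maintains microglial identity, by -2.04, from 187, 70 and 10 counts against 27, 13 and 2. Olfml3, a secreted glycoprotein, differed by -1.40, and Fcrls, an Fc receptor-like scavenger protein, by -1.28. In every one of these 7 genes Sham replicate 1 was far above the other lanes, Sham replicate 2 second, and Sham replicate 3 among the TIA 24h lanes or, for Fcrls, just below them. Gpr84, a receptor for medium-chain fatty acids, and Ltc4s, a leukotriene synthase, did not share the pattern and differed by -0.19 and 0.14. Sham replicate 1 had the highest value in 9 of the 10 genes, and the TIA 24h mean exceeded Sham replicate 3 in 6 of the 10.

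The level of this set followed the depth of the lanes. Its median log2 value was 8.07, 6.54 and 4.62 in Sham replicates 1, 2 and 3, with totals of 25582, 14897 and 6560, and 5.51, 4.92 and 4.09 at TIA 24h, with totals of 10929, 7924 and 7248. Its share of all recovered counts was 13.9%, 6.80% and 2.16% in Sham and 2.85%, 2.46% and 1.35% at TIA 24h. The span within Sham was thus wider than the difference between the groups. Without Sham replicate 1 the median log2 difference of the set was -0.79, without Sham replicate 3 it was -2.57, and with the log2 lane total as a covariate it was -0.77. The part of depth in the lower values was not tested beyond these fits. Slc2a5 differed from the other genes of the set in that Sham replicate 3 kept a value of 4.97, above all TIA 24h lanes.

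**Figure D3:**
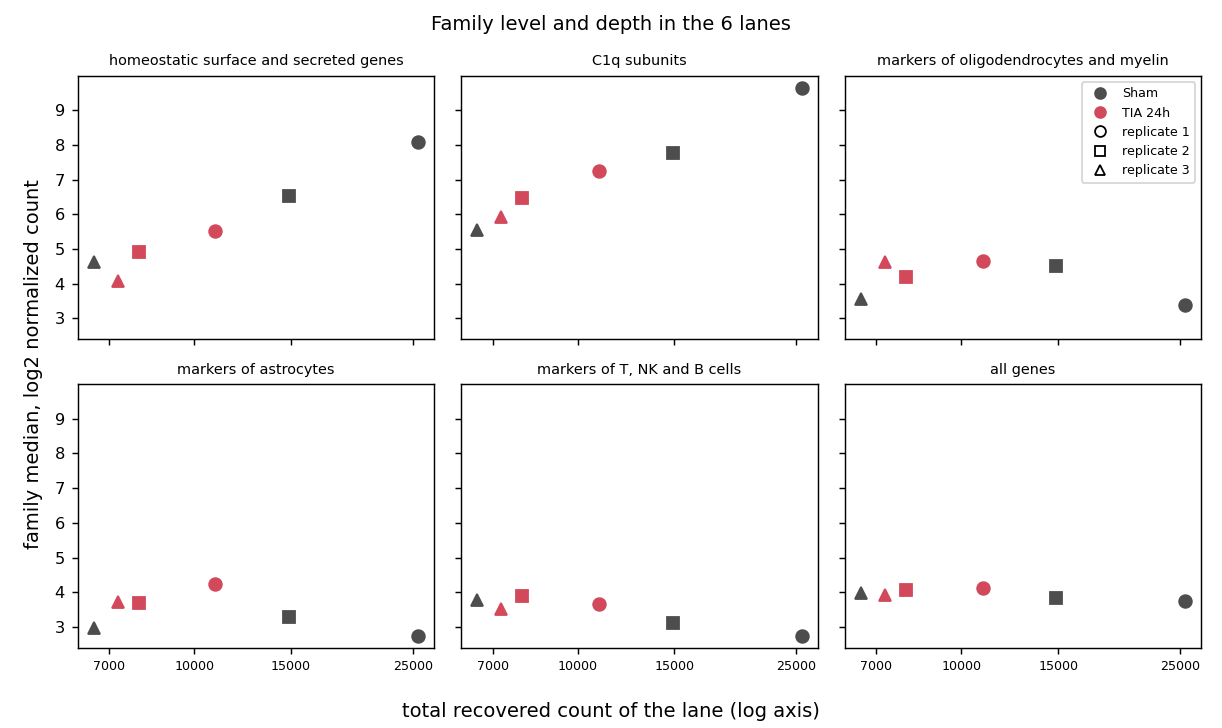
Median log2 normalized count of 5 gene families and of all genes (vertical axis) against the total recovered count of the lane (horizontal axis, log scale) in the 6 lanes, with colours for the groups and symbols for the replicates. The homeostatic genes and the C1q subunits ascend with the lane total, from 4.09 to 8.07 for the former, in which Sham replicate 3 is out of order, while the median of all genes stays between 3.75 and 4.12.

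Regulators of microglial identity in the CSF1 and TGF-beta pathways were lower in mean for 6 of 7 genes, with a median log2 difference of -1.00 that kept its sign in the other scalings. Csf1r, the receptor on which microglial survival depends, was at 750, 188 and 21 counts in Sham against 60, 38 and 10 at TIA 24h and differed by -1.87 ± 0.84 (SE). Tgfbr1, a receptor of TGF-beta, differed by -1.15 and its ligand gene Tgfb1 by -1.00, while Csf1, a ligand of the CSF1 receptor, differed by 0.21. Sham replicate 1 was again far above the other lanes for both receptors, and without it the median was -0.33. Of the 3 purinergic genes, P2ry12 is given above, P2rx7, an ATP-gated channel, was at 0.02 and Entpd2, an enzyme that degrades extracellular ATP, at 1.28 from at most 12 counts. Their median of 0.02 turned to -0.16 under median centring.

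The 3 C1q subunits, which start the classical complement cascade and come largely from microglia in the brain, were all lower in mean. C1qc had 838, 204 and 32 counts in Sham against 96, 60 and 28 at TIA 24h, C1qa 532, 153 and 22 against 84, 31 and 32, and C1qb 833, 198 and 24 against 162, 48 and 40. The differences were -1.22, -1.00 and -0.75, and for each subunit Sham replicate 3 lay within or below the TIA 24h lanes. The median of -1.00 turned to 0.17 under quantile normalization and to 0.07 with the lane total as a covariate, and it was -0.14 without Sham replicate 1. Of the 8 other complement genes 5 were lower in mean, with a median of -0.48 that stayed below 0 in the 3 other scalings but was 0.018 with voom, and 0.059 and -0.17 when replicate 1 or replicate 2 of TIA 24h was left out. Itgam, a chain of complement receptor 3 and the CD11b of the gate, differed by -1.20, C5ar1, the C5a receptor, by 0.50, and C3, the central component, by 0.40 from 9, 9 and 9 counts against 12, 13 and 4.

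Receptors that sense lipids and antibody coats had like values. Of 15 genes of TREM2, Tyrobp and SYK signalling, 13 were lower in mean and the median was -0.36, below 0 in the 3 other scalings. Trem2, a receptor for lipids and apoptotic debris, was at 146, 57 and 16 counts in Sham against 21, 15 and 10 at TIA 24h, with log2 values of 7.13, 5.96 and 4.97 against 5.05, 4.79 and 4.24. Only the first TIA 24h lane exceeded the lowest Sham lane, and the difference was -1.33 ± 0.51 (SE, limma adjusted p = 0.647). It was -0.77 without Sham replicate 1 and -0.76 with the lane total as a covariate. Cd33, an inhibitory sialic acid receptor, differed by -1.01 and Tyrobp, the signalling adaptor of TREM2, by -0.80, the latter turning to 0.14 without Sham replicate 1. The 4 Fc receptor genes were lower in mean, with a median of -0.47, from -0.66 for the inhibitory Fcgr2b and -0.65 for the high-affinity Fcgr1 to -0.18 for the common chain Fcer1g. Without Sham replicate 1 the median was 0.05 for the TREM2 genes and 0.21 for the Fc receptors.

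The disease-associated genes had no shared direction. Of 9 measured, 6 were higher and 3 lower in mean, with a median of 0.21 that turned to -0.01 under quantile normalization. Spp1, which encodes the secreted phosphoprotein osteopontin, had the highest log2 difference of the panel, 2.79 ± 1.84 (SE, limma adjusted p = 0.723). Its counts were 6, 7 and 9 in Sham and 111, 3 and 140 at TIA 24h, so that 2 TIA 24h lanes were far above Sham and the second was below all of it. The difference was 4.55 without that lane, and leaving out replicate 1 or replicate 3 of the same group gave 2.06 or 1.76. Cd68, a lysosomal protein of phagocytes, was at 117, 50 and 10 counts against 43, 29 and 32, a difference of 0.29 that ran from -0.37 to 0.88 with single replicates left out. Axl, a receptor for apoptotic cells, differed by 0.59, Apoe, the main lipoprotein of the brain, by -0.22, with a single count in Sham replicate 3, and Cst7, a protease inhibitor, by -0.11 from at most 9 counts.

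Among 11 genes for the clearance of apoptotic cells and debris, 4 were higher and 7 lower in mean. The median of -0.41 stayed below 0 in the other scalings but was 0.13 without Sham replicate 1, 0.33 with the lane total as a covariate and 0.18 with voom. Msr1 is given above and lay at one end. At the other was Itgb5, an integrin chain for the uptake of apoptotic cells, with 306, 95 and 13 counts in Sham against 26, 18 and 8 at TIA 24h and a difference of -1.74 ± 0.71 (SE). That difference was -0.91 without Sham replicate 1, -2.67 without Sham replicate 3 and -0.77 with the covariate. Mertk, a receptor of the same process, differed by -0.63 and Cd300lf, an immune receptor for phospholipids, by -0.04. Lysosomal genes had a median of -0.54 over 9 genes, which turned to 0.15 under quantile normalization, 0.14 without Sham replicate 1 and 0.29 with the covariate. Ctss, the microglial cathepsin S, was at 820, 213 and 11 counts against 82, 39 and 19 and differed by -1.19. This value rested on single Sham lanes, being -0.030 without replicate 1 and -2.62 without replicate 3, and it was 0.12 under quantile normalization and 0.29 with the covariate.

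The interleukin-1 system was split between its ligands. Il1a, the precursor of interleukin-1 alpha, had the lowest difference of the panel, -2.33 ± 0.82 (SE, limma adjusted p = 0.647), with 54, 19 and 3 counts in Sham against 9, 1 and 1 at TIA 24h. Its log2 values of 5.69, 4.38 and 2.56 against 3.83, 0.89 and 0.92 overlapped through Sham replicate 3. Il1b and Il1rn, given above, and Il1rap, the shared receptor chain, at 1.11, lay above Sham in all lanes by log2 value but not in counts. Il1rap had 5, 13 and 4 counts in Sham against 12, 9 and 9 at TIA 24h, so that Sham replicate 2 had the most. Over the 11 genes the median was 0.37, above 0 in the other scalings, with 6 higher and 5 lower, but it was 0.0037 without Sham replicate 2 and 0.18 without TIA 24h replicate 2. The inflammasome genes Nlrp3 and Casp1 differed by -0.27 and -0.31.

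Of 10 inflammatory chemokine and receptor genes, 7 were higher in mean, and the median of 0.51 stayed above 0 in every scaling. Ccl4 and Ccl3, both attractants of myeloid cells and lymphocytes, differed by 1.01 ± 0.59 and 0.76 ± 0.74 (SE), with 81, 20 and 6 counts of Ccl3 in Sham and 47, 18 and 21 at TIA 24h. The values of Sham replicate 1 exceeded all TIA 24h values for Ccl3 but not for Ccl4. Without Sham replicate 3 the differences were 0.45 for Ccl4 and 0.16 for Ccl3, and without Sham replicate 1 that of Ccl3 was 1.52. Ccr2, the chemokine receptor of inflammatory monocytes, had log2 values of 3.85, 3.45 and 3.30 in Sham and 3.98, 4.35 and 4.73 at TIA 24h, a difference of 0.82. Its counts of 15, 10 and 5 against 10, 11 and 14 overlapped, with the most in Sham replicate 1. Its ligand gene Ccl2 differed by 0.27 with no lane order between the groups.

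Genes that carry inflammatory signals inside the cell had small medians. Over 12 NF-kB genes it was 0.17, and -0.01 and -0.11 after median centring and quantile normalization. Nfkbia, the inhibitor that NF-kB induces, was at 12, 2 and 1 counts in Sham against 8, 7 and 4 at TIA 24h and differed by 1.55 ± 0.61 (SE), against Rela at -1.95, Chuk, a kinase of the pathway, at -0.39 and Nfkb1, the p105 precursor, at -0.31. Among 22 TNF ligand and receptor genes, 16 were higher in mean, with a median of 0.25 that stayed above 0. Tnf itself was at 10, 14 and 8 counts against 10, 8 and 8, a difference of 0.21, and its receptors Tnfrsf1a and Tnfrsf1b differed by -0.49 and -0.45. The 10 Toll-like receptor genes had a median of -0.04, and 0.17 when scaled to the lane total, with Tlr7, a sensor of RNA, at -0.63 and Tlr4, a sensor of lipopolysaccharide, at -0.41.

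Type I interferon response genes, 18 in number, were divided into 10 higher and 8 lower, with a median of 0.07 that turned to -0.11 and -0.14 after median centring and quantile normalization. Rsad2, the antiviral protein viperin, differed by 0.69, Irf7, a master regulator of the response, by 0.66, and Ifnar2, a chain of the receptor, by -0.60. Siglec1, an interferon-induced sialic acid receptor of macrophages, lay above Sham in all 3 lanes by log2 value, at 14, 16 and 9 counts against 12, 14 and 13, with a difference of 0.51. The 6 antigen presentation genes had a median of 0.02, and -0.16 after median centring, with Cd74, the invariant chain, at -0.33 and Psmb8, a subunit of the immunoproteasome, at -0.62.

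Immediate early and stress-induced genes, which respond within minutes to cell isolation as well as to injury, did not share a direction. Their median was -0.08 over 9 genes, and it turned to 0.61 under quantile normalization and 0.14 under scaling to the lane total. Jun was at 190, 74 and 14 counts in Sham against 36, 24 and 17 at TIA 24h and differed by -0.77, Egr1 by -0.36, the heat shock gene Hspb1 by 0.57 and the cell cycle inhibitor Cdkn1a by 0.74. For Jun and Egr1 the range of the Sham lanes enclosed all TIA 24h lanes. The difference of Jun was -0.12 without Sham replicate 1, -1.49 without Sham replicate 3, -0.11 with the covariate and -0.013 under quantile normalization.

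The hypoxia and hexose transporter genes, with 6 of 8 higher in mean, had a median of 0.13 that turned to -0.05 after median centring. Hif1a, the oxygen-regulated transcription factor, was at 51, 38 and 9 counts against 40, 8 and 23 and differed by 0.06. Its target gene Vegfa was at 16, 43 and 27 counts against 29, 30 and 24 and differed by 0.53. Its target Slc2a1, the glucose transporter GLUT1, had 6, 4 and 7 counts against 10, 7 and 4 and differed by 0.72. The counts of both genes overlapped between the groups, and a level count alone gives 0.47. Slc2a5, the fructose transporter, differed by -2.03. Among 11 oxidative stress defence genes the median was 0.17, and -0.01 after median centring. Txnrd1, thioredoxin reductase, lay above Sham in all lanes by log2 value with 14, 12 and 6 counts against 21, 10 and 11 and differed by 0.87 ± 0.42 (SE). Hmox1, which degrades heme, differed by 0.88 and Nfe2l2, the regulator of the response, by -0.53.

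Autophagy genes had a median of 0.24 over 11 genes, above 0 in each scaling, from -0.48 for Atg5 and -0.28 for Becn1 to 0.42 for Ambra1 and 1.08 for Atg9a, the scramblase of autophagosome growth. The 7 eicosanoid genes had a median of -0.30, below 0 in each scaling, with Pla2g4a, the phospholipase that releases arachidonic acid, at 0.68, Hpgds, a prostaglandin D synthase of microglia, at -0.59 and Ptgs2, the inducible cyclooxygenase, at -0.30 from at most 9 counts. The sign of the median turned without Sham replicate 1 (0.14), with the lane total as a covariate (0.049) and with voom (0.19). Hpgds had 116 counts in Sham replicate 1 against at most 23 elsewhere, and without that lane its difference was 0.41.

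In the apoptosis and death receptor family 18 of 30 genes were higher in mean, with 4 wholly above Sham and 2 wholly below, beside 8.06% and 1.72% of all genes. The median of 0.16 turned to -0.03 and -0.14 after median centring and quantile normalization. Casp9, Bik and Bid are given above. Casp6 had the lowest difference of the family, -1.02, from 9, 10 and 9 counts in Sham against 4, 3 and 3 at TIA 24h. Casp2, another initiator caspase, differed by 0.60 from 13, 15 and 9 counts against 11, 13 and 16. DNA replication and repair genes had a median of 0.17 over 42 genes, and -0.01 and -0.08 in the same 2 scalings, with Timeless, a protector of replication forks, at 0.67, Mcm2, part of the replicative helicase, at 0.64, Ung, a uracil glycosylase, at 0.49 and Pcna, the polymerase clamp, at -0.11. Among the 55 chromatin and DNA methylation genes the median was 0.08, and -0.11 and -0.07 in the same scalings. Mbd2, a reader of methylated DNA, differed by 0.88 ± 0.47 (SE), Ezh2, the H3K27 methyltransferase, by 0.73, Dnmt1 by -0.07 and Hdac1 by -0.10.

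Markers of other brain cells were among the families with the highest medians. Of 23 oligodendrocyte and myelin markers, 21 were higher in mean, with 4 at an unadjusted p below 0.05 beside 4.89% of all genes and a median of 0.74 that stayed above 0 in every scaling. Their summed counts were 267, 1142 and 180 in Sham and 796, 339 and 528 at TIA 24h, or 1.04%, 7.67% and 2.74% of the lane against 7.28%, 4.28% and 7.28%. Sham replicate 2 thus carried as large a share as any TIA 24h lane. Myrf, the transcription factor of myelinating cells, differed by 1.13, while Mog, on the outer face of myelin, had 4, 33 and 6 counts against 6, 5 and 10 and differed by 0.01. Without Sham replicate 1 the median of the family was 0.23.

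All 9 astrocyte markers were higher in mean, with a median of 0.67 that stayed above 0 in every scaling, but their summed counts were 102, 179 and 49 in Sham and 162, 74 and 68 at TIA 24h. Gja1, the gap junction protein connexin 43, was at 7, 73 and 16 counts against 45, 17 and 16 and differed by 0.67, Sox9, an astrocyte transcription factor, by 0.53 and Aldh1l1 by 0.34. In Gja1 the second Sham lane and the first TIA 24h lane were the highest. The 24 neuronal markers had a median of 0.23, which turned to -0.03 under quantile normalization, with Homer1, a postsynaptic scaffold, at 0.51, Syp, a synaptic vesicle protein, at 0.04 and Slc17a7 at -0.68. The 9 endothelial markers had a median of 0.33, above 0 in every scaling. Their summed counts were 82, 103 and 77 in Sham and 94, 78 and 62 at TIA 24h. A level count alone gives 0.47 on the deposited scale. Cldn5, the tight junction protein, differed by 0.59 and Emcn by 0.47, and the counts of both overlapped between the groups.

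T, NK and B cell markers had median counts of 7, 8 and 7 in Sham and 8, 8 and 6 at TIA 24h. The 27 markers of T, NK and B cells were higher in mean for 20 genes, with a median of 0.40 that stayed above 0 in every scaling. Their summed recovered counts were, however, 229, 233 and 239 in Sham and 223, 257 and 184 at TIA 24h, close to level while the lane totals varied 3.90-fold, and a level count alone gives 0.47 on the deposited scale. Cd3e, a chain of the T cell receptor complex, had 12, 21 and 10 counts against 8, 12 and 7 and differed by -0.16, Nkg7, a granule protein of cytotoxic cells, by 0.74 and Il2rg, the common cytokine receptor chain, by 0.78. The 2 border macrophage markers, Cd163 and Siglec1, summed to 30, 30 and 28 counts against 31, 31 and 24, and their median was 0.45, above 0 in every scaling. The 8 monocyte and neutrophil markers had a median of 0.29, above 0 in every scaling, with Ccr2 at 0.82 and Csf3r, the G-CSF receptor that microglia also express, at -0.57 from 89, 42 and 15 counts against 20, 20 and 16. The part of other cells in the microglial values was not tested.

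The 9 ribosomal protein genes, grouped after the gene names were seen, were lower in mean for 8, with a median of -0.55 that stayed below 0 in every scaling but shrank to -0.18 with quantile normalization, -0.10 with the covariate and -0.22 without Sham replicate 1. Their summed counts were 498, 327 and 93 in Sham and 198, 89 and 118 at TIA 24h, and their share of all counts was 1.95%, 2.20% and 1.42% against 1.81%, 1.12% and 1.63%.

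**Figure D4:**
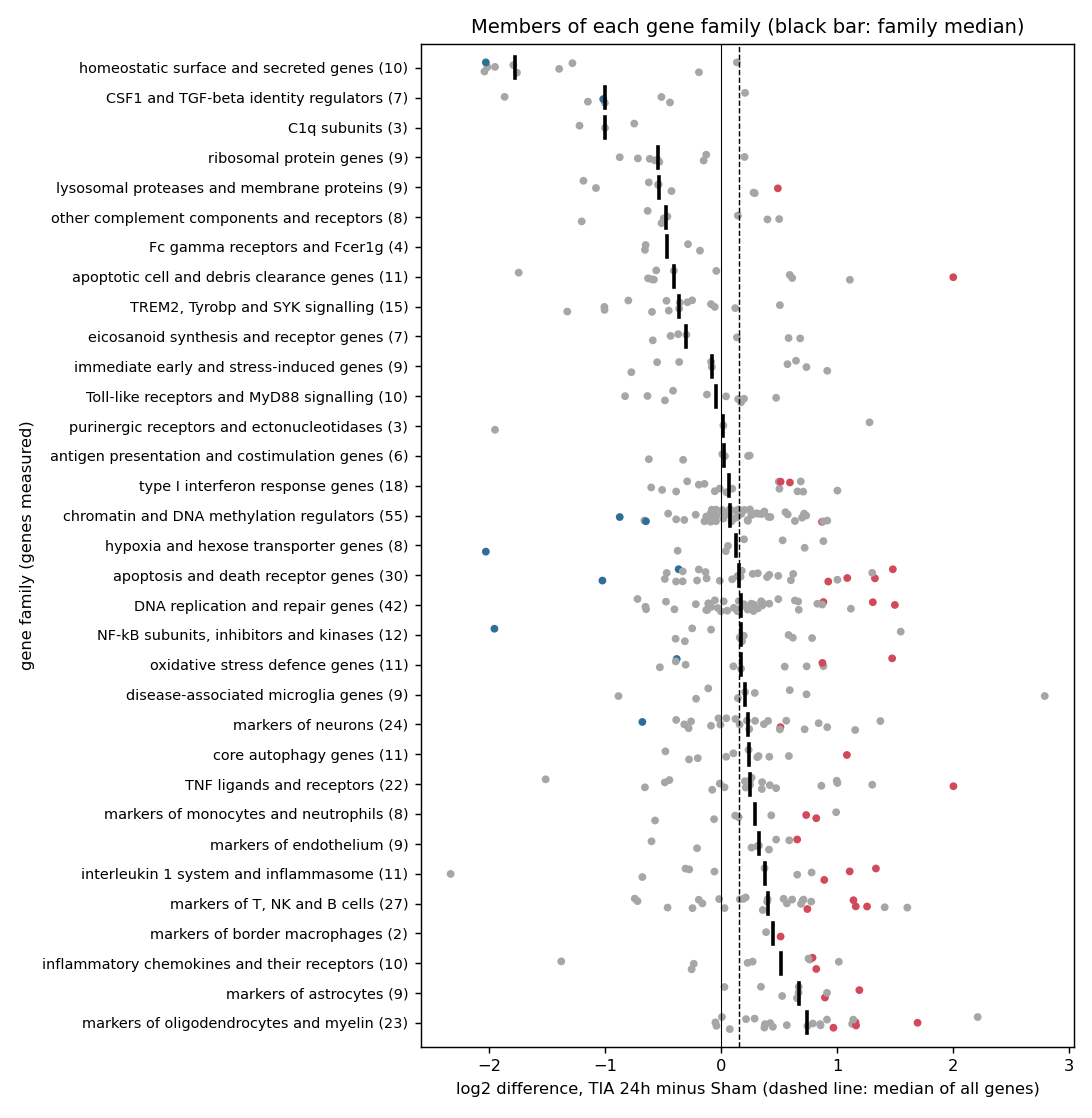
Log2 difference between TIA 24h and Sham (horizontal axis) for each member of the 33 gene families (vertical axis, with the number of genes measured), where black bars are family medians, the dashed line is the median of all genes at 0.15, and red and blue points are genes whose TIA 24h values all lay above or below Sham. The homeostatic genes have the lowest median, -1.78, and the oligodendrocyte and myelin markers the highest, 0.74.

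Of the 33 families, 21 had a median above 0 and 12 a median below it, and 18 kept the sign of the median in the 3 other scalings. With the lane total as a covariate the sign turned in 11 families, and without Sham replicate 1 in 9. The homeostatic, CSF1 and TGF-beta and ribosomal families stayed below 0 in the scalings, with the covariate, with voom and with any single replicate of the 2 groups left out, and the myelin, astrocyte and chemokine families stayed above 0 in the same settings. Their sizes moved: without single replicates the median ran from -2.57 to -0.79 for the homeostatic genes, from -1.47 to -0.30 for the CSF1 and TGF-beta genes, from -0.87 to -0.22 for the ribosomal genes, from 0.23 to 0.82 for the myelin markers, from 0.35 to 0.93 for the astrocyte markers and from 0.27 to 0.71 for the chemokine genes. The TNF, interleukin-1, autophagy, endothelial, border macrophage, monocyte and neutrophil, and T, NK and B cell families also stayed above 0 in all these settings. Among them, the border macrophage and T, NK and B cell markers had summed counts close to level. A level count alone gives 0.47 on the deposited scale. With single replicates left out, some of their medians were small. At their lowest, the medians were 0.052 for the monocyte and neutrophil markers and 0.041 for the autophagy genes, both without Sham replicate 1. They were 0.10 for the TNF genes and 0.25 for the T, NK and B cell markers, both without TIA 24h replicate 2.

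**Figure D5:**
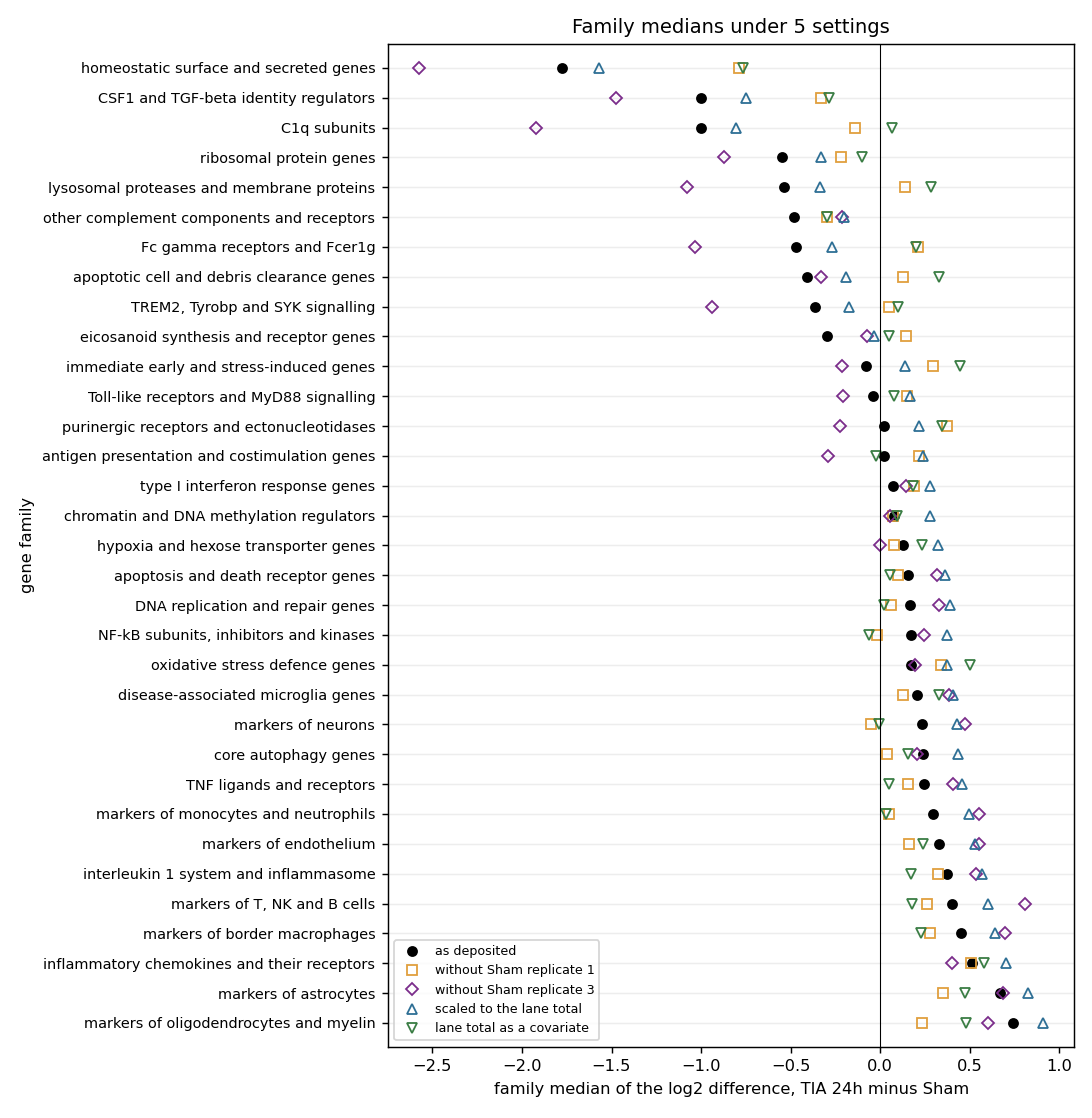
Family medians of the log2 difference between TIA 24h and Sham (horizontal axis) for the 33 gene families (vertical axis) as deposited, without Sham replicate 1 or 3, with recovered counts scaled to the lane total and with the log2 lane total as a covariate. The median of the homeostatic genes runs from -2.57 to -0.77, and the C1q subunits cross 0 at 0.07 with the covariate.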

How the data were processed

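Counts of the nCounter panel were, per the methods of the study, normalized to housekeeping probes in the ROSALIND platform, and the authors deposited the result as log2 normalized counts of 757 genes in 9 samples. Housekeeping and negative control probes were not analysed here, and no count was below 1. Whether counts of 0 were raised to 1 is not given in the sources used here. Whole counts were recovered by dividing 2 to the power of each value by the lane's step (tolerance 0.01, 100% of values whole). Groups were read from the titles.

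The values were fitted over all 9 samples, 3 groups of 3, with limma 3.58.1 in R 4.3.3 (lmFit and eBayes, 6 residual and 7.23 prior degrees of freedom), the contrast being TIA 24h minus Sham, with Benjamini-Hochberg adjustment over 757 genes at 0.05. The script was tested on simulated data with the same SD for all genes, a test that does not cover the unequal spread of these data. P-values set the difference of the means against the spread between lanes within groups, pooled over all 9 samples. Animal, depth of the lane and counting error are not separated in that spread. Differences and their errors are log2 values unless named as counts.

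Genes were named by 3 rules: the 12 highest and 12 lowest log2 differences among genes with non-overlapping groups and a mean of at least 10 counts (6 were available below), the 2 members of each family with the smallest unadjusted p among those with a mean of at least 10 counts, and the anchor genes of each family. The 10 genes added to these 109, and the family members named beyond them, were named after their values were seen. Of these named genes, 6 are not reported here. The members and lists were chosen with earlier results of these data known. Symbols were those of the table, of which 750 matched RefSeq symbols and 7 a synonym (GRCm38.p6, names only). Alternatives were median centring, quantile normalization, scaling to the lane total with a pseudocount of 0.5, the lane total as a covariate, voom, sample weights, a replicate block, the 2 groups alone, a filter on low values, other variance priors, and leaving out single replicates. Counts with no scaling were added after seeing the data.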

Additional observations from a re-analysis of the deposited data

Results flagged for a closer look

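For 51 of the named genes the effect of TIA differed between the 2 time points: TIA 3d minus TIA 24h, the difference between the 2 contrasts against the same Sham lanes, passed an adjusted p of 0.05 in limma over all 757 genes, with adjusted p from 0.0229 to 0.0494. In the same contrast 145 of all 757 genes (19.2%) passed, 88 higher (11.6%) and 57 lower (7.53%) at TIA 3d. The 51 are 45.1% of the 113 named genes, but many of these were named for their TIA 24h values, which this contrast uses again, so nothing is read from that share. The value after each gene is this log2 difference. All 3 lanes of TIA 3d were deeper than every lane of TIA 24h, with totals of 51533, 29200 and 62883 recovered counts against 10929, 7924 and 7248, so depth and time point cannot be told apart.

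In 14 genes the value was lower at TIA 3d. They were the myelin genes Myrf (-2.94), Mobp (-2.35) and Bcas1 (-1.996), the tight junction gene Cldn5 (-1.92), the interleukin-1 genes Il1b (-1.77) and Il1rn (-1.56), the neuropeptide gene Pnoc (-1.76), the cell death genes Bik (-1.62) and Casp9 (-1.37), the heat shock gene Hspb1 (-1.53), the immune receptor and effector genes Kir3dl2 (-1.36), Nkg7 (-1.30) and Siglec1 (-1.26), and the methyltransferase gene Ezh2 (-1.25).

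Higher at TIA 3d were 37 genes. The homeostatic genes among them were Olfml3 (2.01), Fcrls (2.54), Gpr34 (2.86), Cx3cr1 (2.96), Sall1 (3.03), P2ry12 (3.12) and Tmem119 (3.31), which in mean were all below Sham at TIA 24h and above it at TIA 3d. Regulators of identity were Irf8 (1.85), Tgfbr1 (2.79) and Csf1r (3.95). Complement genes were Itgam (2.20), C1qb (3.34), C1qa (3.38) and C1qc (3.65), and genes of TREM2 and Fc receptor signalling were Fcer1g (1.75), Cd33 (1.87), Fcgr1 (1.89), Fcgr2b (1.95), Trem2 (2.84) and Tyrobp (3.12). Clearance and lysosomal genes were Mertk (1.93), Itgb5 (3.44) and Ctss (4.04). Cytokine, chemokine and signalling genes were Tnfrsf1a (1.30), Ifnar2 (1.47), Ccl4 (1.88), Nfkbia (1.89), Rela (2.19), Tlr7 (2.24), Ccl3 (2.60) and Il1a (4.45), the immediate early genes were Jun (2.35) and Egr1 (2.75), and the remaining genes were Pld1 (1.33), Rhoa (1.51), Pcna (1.89) and Hpgds (2.55).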

How the results depend on the processing

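The count of 0 genes past an adjusted p of 0.05 became 1 under quantile normalization (Mobp) and 1 with sample weights (Tnfrsf4) and stayed at 0 in the other fits, single replicates left out included. The 57 genes at an unadjusted p below 0.05 became 125 with sample weights, 33 without Sham replicate 1, 142 without Sham replicate 3 and 33 without TIA 24h replicate 3, a range of 33 to 142 with single replicates left out. The 74 genes with non-overlapping groups became 49 with the 0.25 of genes with the lowest means left out, 42 in recovered counts with no scaling, and 114 to 258 with single replicates left out, where fewer samples make separation easier. The median of all genes moved from 0.15 to -0.030 with median centring, -0.022 with quantile normalization and 0.36 with the lane total. The replicate block gave 0 genes at an adjusted p of 0.05 and 60 at an unadjusted p of 0.05; the numbers do not pair the samples, since deviations of same-numbered lanes correlated across genes at 0.253, -0.237 and 0.153.

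The sign of some named genes, all with unadjusted p above 0.05 as deposited, turned. With the lane total as a covariate the log2 differences were C1qa 0.066, Ctss 0.29, Cd74 0.11, Hpgds 0.39, Homer1 -0.027, C1qb 0.48, Tyrobp 0.16, Fcer1g 0.43, Apoe 1.43, Mertk 0.14, Egr1 0.26, Vegfa -0.0068, Mcm2 -0.083, Pcna 0.57 and Mog -0.33. With median centring they were P2rx7 -0.16, Hif1a -0.12, Mog -0.17, Syp -0.14 and Ltc4s -0.045, and with quantile normalization C1qa 0.17, Ctss 0.12, C1qb 0.34, Fcer1g 0.30, Tnf -0.058, Egr1 0.034, Mog -0.36, Syp -0.17 and Ltc4s -0.056. Scaled to the lane total they were Fcer1g 0.0090, Cst7 0.20, Cd300lf 0.17, Pcna 0.086, Dnmt1 0.15, Hdac1 0.11, Cd3e 0.057 and Gpr84 0.021, with voom Cst7 0.19, Cd300lf 0.40, Ptgs2 0.19, Dnmt1 0.35, Hdac1 0.21, Cd3e 0.26 and Gpr84 0.059, and with sample weights Gja1 -0.44, Cst7 0.60, Cd300lf 0.024, Hif1a -0.28, Mog -1.03 and Gpr84 0.12. With single replicates left out the ranges crossed 0 for P2rx7 -0.22 to 0.37, Fcgr1 -1.28 to 0.015, Cd74 -0.63 to 0.12, Hpgds -1.51 to 0.41, Gja1 -0.30 to 1.49, C1qb -1.80 to 0.25, Tyrobp -1.72 to 0.14, Fcer1g -0.77 to 0.41, Apoe -1.77 to 0.63, Cst7 -0.83 to 0.81, Mertk -1.25 to 0.057, Cd300lf -0.38 to 0.32, Cd68 -0.37 to 0.88, Ccl2 -0.19 to 0.86, Tnf -0.026 to 0.33, Egr1 -0.98 to 0.25, Hif1a -0.39 to 0.67, Vegfa -0.037 to 0.86, Becn1 -0.51 to 0.0029, Pcna -0.76 to 0.32, Dnmt1 -0.25 to 0.033, Hdac1 -0.18 to 0.020, Mog -0.80 to 0.82, Aldh1l1 -0.10 to 0.58, Syp -0.14 to 0.29, Cd3e -0.46 to 0.042, Gpr84 -0.40 to 0.053 and Ltc4s -0.025 to 0.22. The causes were not tested. At 3 lanes a group and a median of 8 to 14 counts per gene, small differences were not detectable.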
